A study of Mus musculus with 9 samples.

Results

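The 10 genes described here encode enzymes of the methionine cycle, of transsulfuration and of folate metabolism in the mouse liver: Bhmt, Bhmt2, Mat1a, Gnmt, Pemt, Ahcy, Cbs, Cth, Mthfd1 and Shmt1. They were chosen by symbol, and each has a single entry among the 24411 genes of the count table. All 10 passed the filter on low counts, which kept 11199 genes in all.

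Poly(A) RNA was sequenced from livers of 3 genotypes, with 3 livers each, every one from another mouse by its title, taken at 3 months of age from mice on a C57BL/6 background. The cont. mice were Atg7flox/flox, with floxed copies of the autophagy gene Atg7 and without Cre. Mice of the Atg7-KO group were Atg7flox/flox;Alb-Cre, in which the albumin promoter drives Cre and Atg7 is lost from hepatocytes, while the other cells of the liver keep the gene. The Atg7-KO;p62-S351A mice, called S351A below, were Atg7flox/flox;Alb-Cre;p62S351A/p62S351A, with a serine of the autophagy receptor p62 replaced by alanine in all cells. The floxed Atg7 alleles were thus shared by all 3 groups, and none of the 3 carried the p62 mutation alone. Groups follow the titles of the libraries. The genotype entries of S351A replicates 2 and 3 name another position for the second allele, which gene counts cannot settle.

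The methionine cycle turns methionine into S-adenosylmethionine, the methyl donor of most methyltransferases, and returns the homocysteine left after methyl transfer to methionine with a methyl group from betaine or from folate. Transsulfuration instead passes the homocysteine sulfur on to cysteine, which feeds glutathione, taurine and sulfate. The liver is the main site of these reactions, and several of the enzymes are hallmarks of the differentiated hepatocyte.

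To show the DNA in front of genes that fell together, the 250 bases before the start site were read from RefSeq's promoters (GRCm38.p6) for the 8 of the 10 genes that matched, giving 9 windows because Pemt has 2 start sites there, and Mat1a and Cth are named only. The pentamer CCAAT, on either strand, occurred in 7 of these 9 windows, those of Ahcy, Bhmt, Cbs, Gnmt, Mthfd1 and Shmt1 and 1 of the 2 of Pemt, and in 33.8% of the 32851 promoter windows of the same length. The 3 windows below hold a single copy each, which is written in capitals as it reads on the gene's strand, and they are shown because their copies lie at different distances from the start, 237 bases before it in Ahcy, 62 in Gnmt and 69 in Mthfd1.
Ahcy, chr2:155074498-155074747, minus strand: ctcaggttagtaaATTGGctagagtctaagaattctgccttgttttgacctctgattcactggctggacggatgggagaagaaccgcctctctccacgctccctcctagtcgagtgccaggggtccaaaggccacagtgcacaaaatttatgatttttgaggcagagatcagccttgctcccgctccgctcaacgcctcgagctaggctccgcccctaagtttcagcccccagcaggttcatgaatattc
Gnmt, chr17:46729166-46729415, minus strand: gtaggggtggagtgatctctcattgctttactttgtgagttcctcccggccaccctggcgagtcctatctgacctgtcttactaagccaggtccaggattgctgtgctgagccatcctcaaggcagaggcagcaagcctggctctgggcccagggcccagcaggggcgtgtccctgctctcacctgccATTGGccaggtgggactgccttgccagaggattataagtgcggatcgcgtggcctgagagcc
Mthfd1, chr12:76254982-76255231, plus strand: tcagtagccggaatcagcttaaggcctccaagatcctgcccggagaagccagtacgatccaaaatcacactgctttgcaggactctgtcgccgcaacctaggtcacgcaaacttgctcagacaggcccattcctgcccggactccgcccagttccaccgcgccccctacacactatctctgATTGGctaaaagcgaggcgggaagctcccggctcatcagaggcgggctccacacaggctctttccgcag

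A GC box, GGGCGG on either strand, lay in the windows of Ahcy, Bhmt2, Cbs, Mthfd1 and Shmt1, 5 of 9, and in 32.7% of all windows. The E-box CACGTG was found in the window of Cbs alone, against 6.02% of all windows. No window held the antioxidant response element core TGACNNNGC (10.2% of all windows), the amino acid response element TGATGNAA (3.45%), the C/EBP palindrome TTGCNNAA (9.56%), the HNF4 core CAAAGTCCA (0.384%) or the TATA box TATAAA (12.4%). Each motif was searched on both strands, and the motifs do not contain one another. These are matches of letters within the window and nothing more was read from them.

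Bhmt and Bhmt2 are neighbours on chromosome 13 of mm10, where Bhmt lies at chr13:93616675-93637961 and Bhmt2 at chr13:93655720-93674302, both on the minus strand and 17758 bases apart. Dmgdh, whose enzyme oxidizes the dimethylglycine that betaine-homocysteine methyltransferase releases, starts on the opposite strand only 130 bases from Bhmt2. The stretch between these divergent genes is shown on the strand of Bhmt2 because all 3 neighbours fell in both comparisons with cont., and its GC box is in capitals.
Bhmt2 to Dmgdh, chr13:93674303-93674432, minus strand: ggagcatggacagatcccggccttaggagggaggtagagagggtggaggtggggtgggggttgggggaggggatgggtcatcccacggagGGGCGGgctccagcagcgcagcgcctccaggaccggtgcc

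Library totals were 1875314 to 15426566 counts in cont., 1945469 to 3675041 in Atg7-KO and 713835 to 792366 in S351A. All S351A libraries were shallower than the other 6, and with every library thinned to the smallest total the 10 genes gave the same numbers of calls, 10 in Atg7-KO and 8 in S351A against cont. and 0 between S351A and Atg7-KO. The fewest counts behind a value of the 10 genes were 68 in a cont. or Atg7-KO library and 24 in an S351A library. Xist and Y-linked counts marked 2 male and 1 female livers in cont., and 1 male and 2 female livers in each of the other groups. Levels below are CPM, a library's counts rescaled to a common total on the TMM scale (trimmed mean of M values, a scaling that sets the bulk of genes level between libraries). Atg7 was at 45.1, 57.8 and 42.4 CPM in cont., at 30.2, 28.0 and 28.4 in Atg7-KO and 21.8, 24.8 and 22.2 in S351A, and it fell in both groups with Cre (log2 fold changes -0.74 and -1.07, edgeR adjusted p 0.00758 and 0.00319). Hepatocyte transcripts were abundant in all libraries, where 9 markers summed to 66927 to 135810 CPM in cont., at 39647 to 46478 in Atg7-KO and 38680 to 52734 in S351A, and none of the 9 was at 0.

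The comparison of Atg7-KO with cont. asked what the loss of Atg7 from hepatocytes did to these transcripts. All 10 genes were lower in Atg7-KO, by 2.20-fold for Bhmt2 to 6.84-fold for Cth, and all 10 were called, whereas 18.1% of all tested genes were called lower. A gene was called when edgeR's quasi-likelihood test gave a Benjamini-Hochberg adjusted p under 0.05 over the 11199 genes and the fold was above 1.5. For each of the 10, every Atg7-KO library lay below every cont. library, which held for 24.9% of all genes. The median log2 fold change of the 10 was -1.54, against -0.03 over all genes tested. In whole liver, fewer hepatocytes and less of these transcripts in each hepatocyte cannot be told apart.

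S351A was compared with cont. to show the state of the same genes when the Atg7-deficient liver also carries mutant p62. Of the 10 genes, 8 were called lower in S351A than in cont., where 13% of all tested genes were called lower, and the other two, Mat1a and Gnmt, had negative log2 fold changes that did not pass. The called genes were lower by 2.06-fold for Cbs to 4.46-fold for Cth. The S351A libraries did not overlap the cont. libraries for the same 8 genes, against 18.4% of all genes. The median log2 fold change was -1.25, against -0.03 over all genes. Both comparisons use the same 3 cont. libraries, so their values stand side by side below and are not independent of each other.

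As a share of all counts (mean ± SD, n = 3), the 10 transcripts together took 1.08% ± 0.199 for cont., 0.497% ± 0.0569 for Atg7-KO and 0.634% ± 0.194 for S351A. Summed over the 10, cont. livers 1, 2 and 3 reached 10714, 16158 and 14353 CPM, Atg7-KO livers 3721, 4544 and 4889 CPM, and S351A livers 3997, 6015 and 7288 CPM. All 6 Cre-bearing livers were thus below the lowest cont. liver. The spread between livers was wide in cont., with a median coefficient of variation over the 10 genes of 29.5%, against 13.1% in Atg7-KO and 22.2% in S351A.

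**Figure D1:**
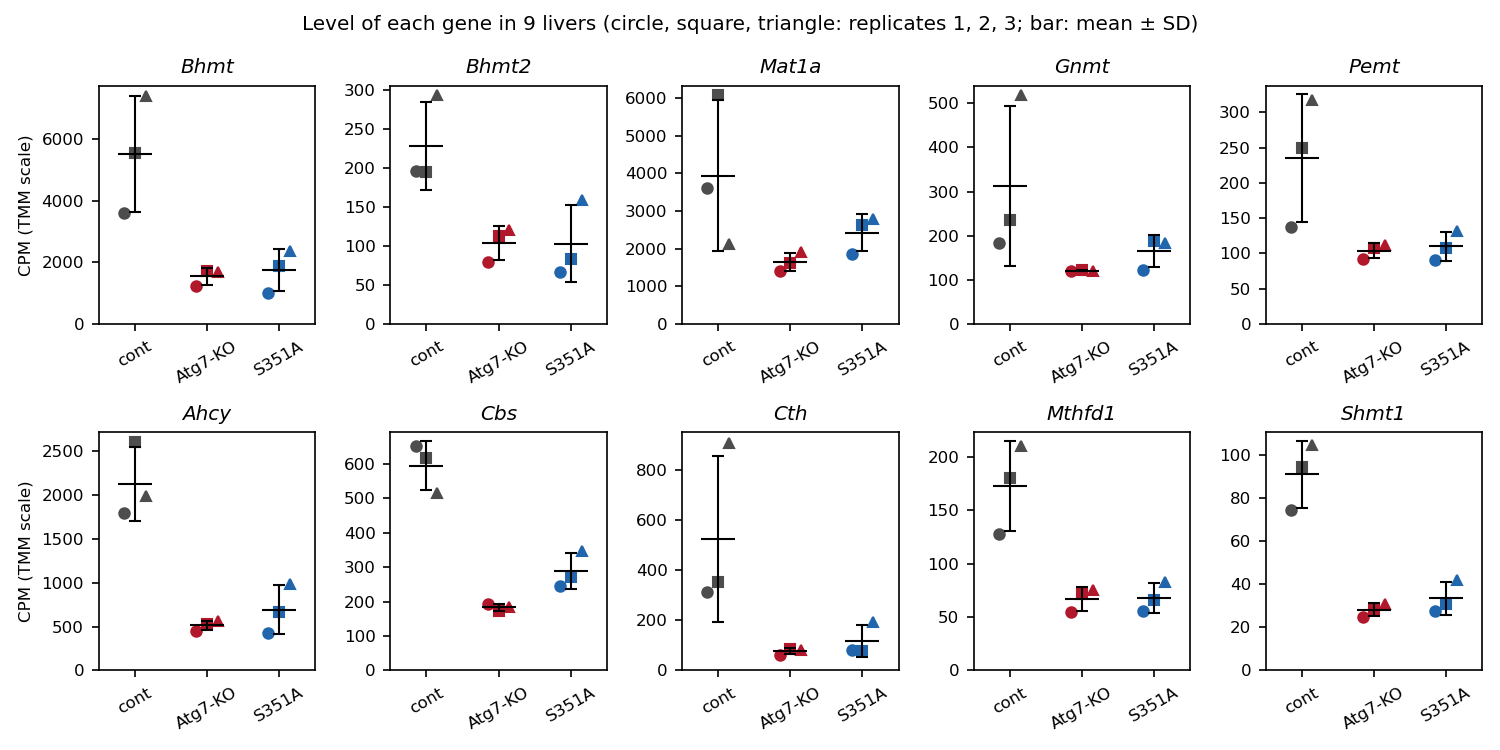
Level of each gene in CPM on the TMM scale (linear axes from 0) in the 3 livers of cont., Atg7-KO and S351A; circles, squares and triangles are replicates 1, 2 and 3, and bars give the mean ± SD. All Atg7-KO points lie below all cont. points in each of the 10 panels, and S351A replicate 3 is the highest of its group in 9 of them.

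Bhmt and Bhmt2 encode the betaine-homocysteine and S-methylmethionine-homocysteine methyltransferases, which remethylate homocysteine without folate. Bhmt was at 3608, 5537 and 7384 CPM in cont., at 1229, 1705 and 1688 CPM in Atg7-KO, and at 1017, 1878 and 2368 CPM in S351A. Its highest value with Cre remained below its lowest value without. The log2 fold change of Bhmt was -1.84 (SE 0.36, adjusted p 0.0018) in Atg7-KO, a 3.58-fold reduction, and -1.65 (SE 0.36, adjusted p 0.0053) in S351A, a 3.14-fold reduction. Bhmt2 was at 196, 195 and 294 CPM in cont., at 79.1, 112 and 121 CPM in Atg7-KO, and at 66.6, 83.2 and 159 CPM in S351A. The groups with Cre stayed under cont. here too, with S351A replicate 3 coming closest. Bhmt2 changed by a log2 fold of -1.14 (SE 0.31, adjusted p 0.0127) in Atg7-KO and of -1.15 (SE 0.32, adjusted p 0.0186) in S351A. These calls of Bhmt2 rested on single libraries, since the Atg7-KO call was lost without Atg7-KO replicate 1 (-0.97, adjusted p 0.0695) and the S351A call without cont. replicate 3 (-0.94, adjusted p 0.0525), S351A replicate 1 (-0.93, adjusted p 0.0819) or S351A replicate 2 (-1.04, adjusted p 0.0846), and in a fit of the 6 compared libraries alone (-1.08, adjusted p 0.0633). Per kilobase of exon, the ratio of Bhmt to Bhmt2 (mean ± SD, n = 3) came to 10.3 ± 2.18 for cont., 6.37 ± 0.363 for Atg7-KO and 7.53 ± 1.86 for S351A.

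Mat1a encodes the catalytic subunit of the S-adenosylmethionine synthetases of adult liver. It lies on chromosome 14 at chr14:41105035-41124412 on the plus strand. Its level stood at 3627, 6090 and 2114 CPM in cont., at 1412, 1617 and 1911 CPM in Atg7-KO, and at 1858, 2640 and 2796 CPM in S351A. The Atg7-KO livers were all below cont., the nearest pair being Atg7-KO replicate 3 and cont. replicate 3, while 2 of the 3 S351A livers were above that cont. replicate. Mat1a fell by a log2 fold change of -1.26 in Atg7-KO (SE 0.36, adjusted p 0.0147). In S351A it was -0.70 relative to cont. (SE 0.36, adjusted p 0.161), without a call. Single livers decided both outcomes, because the Atg7-KO call was lost without cont. replicate 2 (-0.81, adjusted p 0.06), Atg7-KO replicate 1 (-1.16, adjusted p 0.0652) or Atg7-KO replicate 2 (-1.25, adjusted p 0.0549), and without cont. replicate 3 Mat1a was called lower in S351A as well (-1.01, adjusted p 0.0254), where without cont. replicate 2 it was at -0.25 (adjusted p 0.587). With sex as a covariate, Mat1a was also called in S351A (-0.86, adjusted p 0.0391).

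Mat2a and Mat2b encode the catalytic and regulatory subunits of the synthetase found outside the liver and in growing hepatocytes. Mat2a was at 89.6, 84.5 and 88.1 CPM in cont., at 109, 95.8 and 109 CPM in Atg7-KO and at 85.0, 128 and 80.2 CPM in S351A, and it was called in neither comparison (log2 fold changes 0.26 and 0.16, adjusted p 0.352 and 0.616), though with total library size as the scaling it was called higher in both (0.80 and 0.64, adjusted p 0.00802 and 0.0351). Mat2b was not called either (-0.35 and -0.31, adjusted p 0.224 and 0.369), and its sign turned positive under the same scaling (0.21 and 0.20). Per kilobase of exon, Mat1a exceeded Mat2a by a ratio of 52.3, 93.2 and 31.0 in cont., 16.8, 21.8 and 22.7 in Atg7-KO, and 28.3, 26.7 and 45.1 in S351A. Mat1a therefore remained the more abundant of the pair in each library, and all Atg7-KO ratios were below all cont. ratios.

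Gnmt and Pemt encode the methyltransferases that use most S-adenosylmethionine in liver, Gnmt by methylating glycine to sarcosine and Pemt by making phosphatidylcholine from phosphatidylethanolamine. Gnmt (chr17:46725664-46729168, minus strand) was at 184, 235 and 519 CPM in cont., at 121, 122 and 120 CPM in Atg7-KO, and at 123, 189 and 183 CPM in S351A. Its Atg7-KO livers were nearly equal, with a coefficient of variation of 0.551%, whereas that in cont. was 57.7%, with replicate 3 far above the others. The Atg7-KO values rest on 522, 339 and 263 counts, whose counting error is larger than 0.551%, so this closeness does not measure how alike the livers were. Gnmt fell by a log2 fold change of -1.38 in Atg7-KO (SE 0.34, adjusted p 0.00712). In S351A it was -0.93 relative to cont. (SE 0.34, 95% interval -1.60 to -0.26, adjusted p 0.0596), with S351A replicate 2 above cont. replicate 1. Gnmt was called lower in S351A by DESeq2 (-0.91, adjusted p 0.0407), without a filter on low counts (-1.05, adjusted p 0.00482), without cont. replicate 1 (-1.22, adjusted p 0.0143) and without cont. replicate 2 (-1.12, adjusted p 0.0374). Without cont. replicate 3 both values shrank, to -0.80 in Atg7-KO (adjusted p 0.0167) and -0.36 in S351A (adjusted p 0.277), and in S351A Gnmt was called in 5 of the 21 alternatives. Pemt (chr11:59970614-60046489, minus strand) was at 138, 249 and 318 CPM in cont., at 92.1, 108 and 112 CPM in Atg7-KO, and at 90.8, 108 and 132 CPM in S351A. The highest S351A liver came just under the lowest cont. liver. Pemt fell by log2 fold changes of -1.18 (SE 0.28, adjusted p 0.00572) in Atg7-KO and -1.10 (SE 0.29, adjusted p 0.0138) in S351A, the latter call being lost without S351A replicate 1 (-0.99, adjusted p 0.0648) or 2 (-1.10, adjusted p 0.0535) and in the 6 compared libraries alone (-1.02, adjusted p 0.0599).

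Ahcy encodes S-adenosylhomocysteine hydrolase, which splits the product of methyl transfer into homocysteine and adenosine. The gene lies at chr2:155059310-155074497 on the minus strand, just downstream of the window printed above. Ahcy was at 1795, 2604 and 1987 CPM in cont., at 452, 524 and 562 CPM in Atg7-KO, and at 431, 669 and 984 CPM in S351A. The 6 livers with Cre were all well below the lowest cont. liver, and the S351A values spread over a wider range than the Atg7-KO values. Ahcy fell 4.15-fold in Atg7-KO (log2 fold change -2.05, SE 0.31, adjusted p 0.000333) and 3.06-fold in S351A (-1.62, SE 0.31, adjusted p 0.00243). It was called in both comparisons under all 21 alternatives of scaling, filter, test, covariate, depth, threshold or left-out library. The related Ahcyl2, whose protein lacks clear hydrolase activity, also fell (-1.04 and -1.39, adjusted p 0.0102 and 0.01), calls that were lost under total library size in both (-0.50 and -0.89, adjusted p 0.175 and 0.071) and by limma-voom in S351A (-1.22, adjusted p 0.0541). Ahcyl1 was called in neither (-0.07 and -0.40, adjusted p 0.807 and 0.166), with a positive value under total library size (0.47 and 0.10).

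Cbs and Cth encode cystathionine beta-synthase and cystathionine gamma-lyase, the consecutive enzymes of transsulfuration. Cbs (chr17:31608894-31637238, minus strand) was at 652, 619 and 515 CPM in cont., at 194, 172 and 184 CPM in Atg7-KO, and at 247, 273 and 348 CPM in S351A. The 3 groups formed separate ranges, with cont. on top, S351A between and Atg7-KO at the bottom. Cbs fell 3.25-fold in Atg7-KO (log2 fold change -1.70, SE 0.22, adjusted p 0.000111) and 2.06-fold in S351A (-1.04, SE 0.22, adjusted p 0.00414). Cth (chr3:157894248-157925077, minus strand) was at 313, 354 and 907 CPM in cont., at 62.2, 85.1 and 83.7 CPM in Atg7-KO, and at 81.6, 78.2 and 194 CPM in S351A. It had the largest fold of the 10 genes in both comparisons, and also the largest spread in cont., where replicate 3 stood far above the others. Cth fell 6.84-fold in Atg7-KO (log2 fold change -2.77, SE 0.45, adjusted p 0.000538) and 4.46-fold in S351A (-2.16, SE 0.45, adjusted p 0.004). Leaving out any single library moved the log2 fold change of Cth in Atg7-KO to between -3.06 and -2.12, and that in S351A to between -2.74 and -1.51, and it stayed called throughout, with the smallest values found without cont. replicate 3.

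Mthfd1 and Shmt1 act on cytosolic folate, Mthfd1 by interconverting formyl, methenyl and methylene tetrahydrofolate and Shmt1 by moving the hydroxymethyl group of serine onto tetrahydrofolate. Mthfd1 (chr12:76255298-76319803, plus strand) was at 127, 180 and 210 CPM in cont., at 54.5, 71.1 and 75.5 CPM in Atg7-KO, and at 55.1, 65.8 and 82.7 CPM in S351A. The ranges of Atg7-KO and S351A coincided almost completely and lay below that of cont. Mthfd1 fell 2.59-fold in Atg7-KO (log2 fold change -1.37, SE 0.24, adjusted p 0.000904) and 2.55-fold in S351A (-1.35, SE 0.25, adjusted p 0.00218). Shmt1 (chr11:60788104-60811718, minus strand) was at 74.4, 94.4 and 105 CPM in cont., at 25.1, 28.4 and 31.1 CPM in Atg7-KO, and at 27.6, 31.0 and 42.0 CPM in S351A. It was the gene of the 10 with the fewest counts, 24 in S351A replicate 1, and still separated fully from cont. Shmt1 fell 3.27-fold in Atg7-KO (log2 fold change -1.71, SE 0.21, adjusted p 7.8e-05) and 2.74-fold in S351A (-1.45, SE 0.23, adjusted p 0.000717). Per kilobase of exon, its mitochondrial counterpart Shmt2 was the more abundant, and the ratio of Shmt1 to Shmt2 (mean ± SD, n = 3) came to 0.238 ± 0.0596 for cont., 0.138 ± 0.0167 for Atg7-KO and 0.146 ± 0.0148 for S351A.

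**Figure D2:**
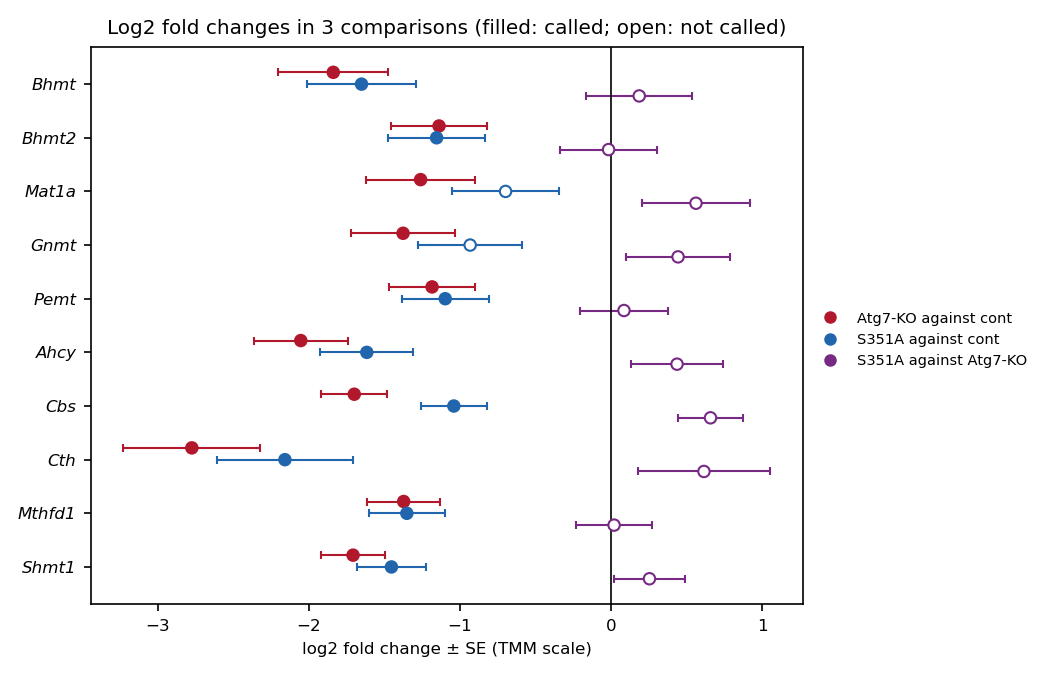
Log2 fold change (x axis, TMM scale) of each gene in Atg7-KO against cont. (red), S351A against cont. (blue) and S351A against Atg7-KO (purple), with bars for the SE of the edgeR fit; filled points were called and open points were not. All 10 red and 8 blue points are filled and left of 0, and all 10 purple points are open, from -0.02 for Bhmt2 to 0.66 for Cbs.

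These folds depended on how the libraries were scaled, though their direction did not. TMM factors were 0.727 to 0.843 in cont. and 1.07 to 1.18 in the other 6 libraries, and the 20 most abundant genes took a larger part of the counts in cont. When libraries were scaled by their totals alone, the median of all genes shifted by 0.55 in Atg7-KO and 0.50 in S351A on the log2 scale, and the median of the 10 genes became -0.99 and -0.74. All 10 kept negative values in both comparisons with cont. under every alternative run. Under total library size 6 were called in Atg7-KO (Bhmt, Ahcy, Cbs, Cth, Mthfd1 and Shmt1), where 7.11% of all genes were then called lower and 38.5% higher. In S351A 5 were called (the same without Cbs, at -0.56 and adjusted p 0.0827), where 4.55% of all genes were called lower and 31.6% higher.

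**Figure D3:**
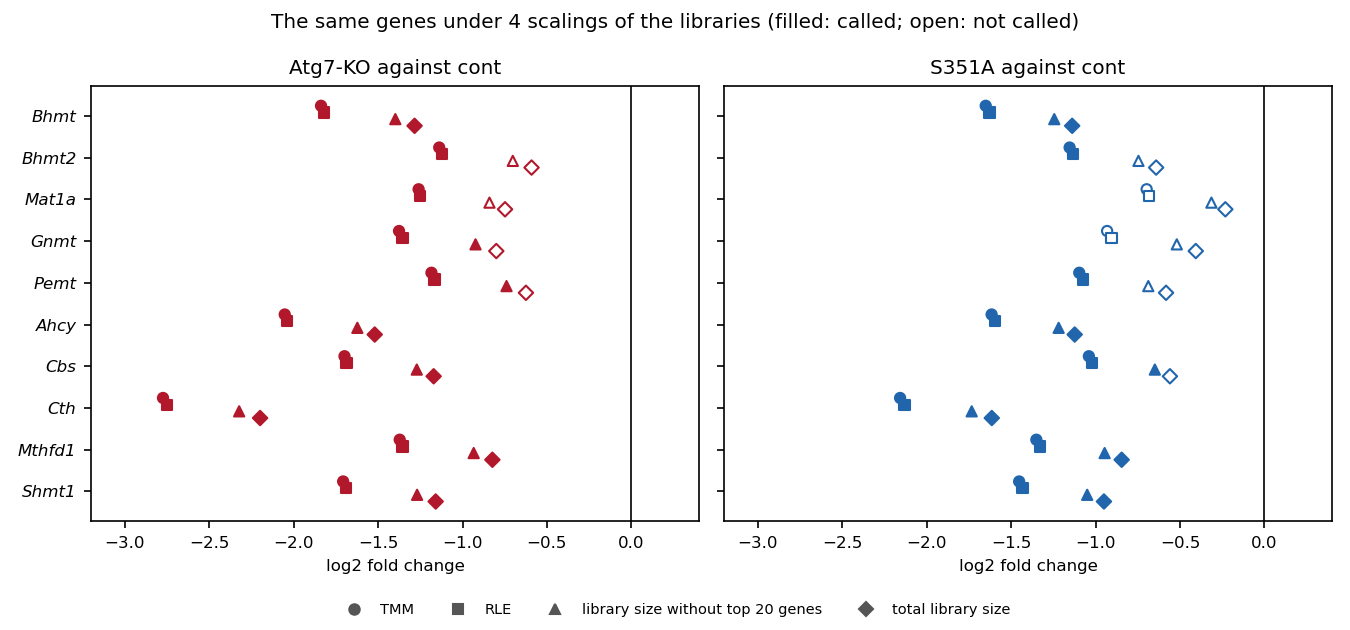
Log2 fold change (x axis) of the 10 genes in Atg7-KO against cont. (left) and S351A against cont. (right) under TMM (circles), RLE size factors (squares), library size without the 20 most abundant genes (triangles) and total library size (diamonds); filled points were called. All points lie left of 0, and the median of the 10 moves from -1.54 with TMM to -0.99 with total library size in Atg7-KO.

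S351A was compared with Atg7-KO to show whether the p62 mutation altered these genes in the Atg7-deficient liver. None of the 10 was called by edgeR, DESeq2 or limma-voom, where edgeR called 0.00893% of all genes, a single gene that is none of these. Cbs alone had an unadjusted p under 0.05, against 6.6% of all genes, with a log2 fold change of 0.66 in favour of S351A (SE 0.22, 95% interval 0.23 to 1.08, unadjusted p 0.0101, adjusted p 0.642). Every S351A liver was above every Atg7-KO liver for Cbs and Gnmt, 2 of 10, against 7.67% of all genes. For Gnmt the nearest livers were at 122.9 CPM in S351A and 121.7 CPM in Atg7-KO. The median log2 fold change of the 10 was 0.35, against 0.01 over all genes.

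The intervals of the other genes were wide. For Cth the log2 fold change was 0.62 (95% interval -0.25 to 1.48), for Mat1a 0.56 (-0.13 to 1.26), for Gnmt 0.44 (-0.23 to 1.12) and for Ahcy 0.44 (-0.15 to 1.03). For Shmt1 it was 0.25 (-0.20 to 0.71), for Bhmt 0.19 (-0.50 to 0.88) and for Pemt 0.09 (-0.48 to 0.65). For Mthfd1 it was 0.02 (-0.47 to 0.52) and for Bhmt2 -0.02 (-0.65 to 0.62). A level 1.5-fold higher in S351A thus lay inside the interval of every gene but Mthfd1, and a level 1.5-fold lower inside that of Bhmt2 alone.

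The 3 S351A livers were not alike in these genes. Replicate 3 was the highest of its group for 9 of the 10 and above all Atg7-KO livers for 10 of 10. Replicate 1 was the lowest of its group for 9 of the 10 and below all Atg7-KO livers for 4. Replicate 1 was likewise the lowest for 7 of the 10 in cont. and 8 in Atg7-KO, and replicate 3 the highest for 7 and 6. The share of all genes with these positions was not counted. Ahcy showed the pattern plainly, at 431, 669 and 984 CPM in S351A replicates 1, 2 and 3 against 452 to 562 CPM in Atg7-KO. Without S351A replicate 3 the median of the 10 in S351A against Atg7-KO dropped from 0.35 to 0.05, and without S351A replicate 1 it was 0.54. The summed level of the hepatocyte markers was 38680, 46454 and 52734 CPM in the same S351A replicates, and the part of hepatocyte content in the difference was not tested. By Xist and Y-linked counts, replicate 1 was male and replicates 2 and 3 were female in both Atg7-KO and S351A. In cont., replicates 1 and 3 were male and replicate 2 was female. The part of sex in the order of the replicates was not tested.

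The genes around these enzymes were described from a list of 68 genes of the connected steps, of which 61 had enough counts to be tested. In Atg7-KO, 23 were called lower than in cont. and 6 higher, where 18.1% and 19.9% of all genes were called. In S351A, 21 were called lower and 3 higher, where 13% and 15.6% of all genes were called. The balance moved with the scaling, and with total library size it was 14 lower and 18 higher in Atg7-KO, against 7.11% and 38.5% of all genes, and 12 lower and 10 higher in S351A, against 4.55% and 31.6%. Among the listed genes named in the text, that scaling ended the calls of Ahcyl2, Gamt, Shmt2, Slc46a1, Cdo1, Ethe1 and Adi1 in both comparisons, of Apip and Tcn2 in Atg7-KO and of Pipox and Got1 in S351A. The calls it added included Mat2a (0.80 and 0.64) and Mtrr (1.04 and 1.47) in both, Mthfd2 in Atg7-KO (1.72) and Gclc in S351A (0.88). The median over the 61 genes was -0.35 in Atg7-KO and -0.17 in S351A, nearer to 0 than for the 10 enzymes. Between S351A and Atg7-KO edgeR called none of the 61, of which 5 had an unadjusted p under 0.05, near the 6.6% of all genes. DESeq2 called Gclc alone of the list.

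The arm that turns choline into glycine and yields one-carbon units fell, except at its start. Of its 5 genes, 4 were called lower in both comparisons, where 18.1% and 13% of all genes were. Dmgdh was at 211, 389 and 480 CPM in cont., at 90.9, 124 and 108 CPM in Atg7-KO and at 90.8, 109 and 176 CPM in S351A, with no overlap between cont. and the other groups (log2 fold changes -1.75 and -1.52, adjusted p 0.00124 and 0.00495). Aldh7a1, which makes betaine from its aldehyde, changed by -1.84 and -1.58, Sardh, sarcosine dehydrogenase, by -1.73 and -1.25, and Pipox, a peroxisomal sarcosine and pipecolate oxidase, by -1.68 and -1.25. Chdh, the choline dehydrogenase that opens the arm, was not called (-0.02 and -0.16, adjusted p 0.957 and 0.68).

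Among other users of S-adenosylmethionine, 3 of 6 fell in both comparisons, where 18.1% and 13% of all genes were called lower. Nnmt, which methylates nicotinamide, was at 221, 303 and 145 CPM in cont., at 27.6, 26.9 and 40.7 CPM in Atg7-KO and at 35.6, 64.6 and 85.2 CPM in S351A. It was thus lower in all 6 livers with Cre than in any cont. liver (-2.82 and -1.85, adjusted p 7.9e-05 and 0.00218). Inmt, an indole methyltransferase, had the lowest log2 fold change of the list in Atg7-KO (-3.42, and -2.62 in S351A). Without cont. replicate 3, its highest library, these values of Inmt became -2.72 and -1.93, and without S351A replicate 3 the S351A value became -3.34. Gamt, which makes creatine, had the smallest fold of the 3 (-1.13 and -1.01). Adk, the adenosine kinase that removes the other product of Ahcy, fell in both, with cont. livers at 586 to 800 CPM, Atg7-KO livers at 137 to 151 CPM and S351A livers at 111 to 232 CPM (-2.24 and -2.13, adjusted p 0.00011 and 0.000342).

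Of 9 further cytosolic folate genes, 3 fell in both comparisons, where 18.1% and 13% of all genes were called lower, and the other 6 were not called. Aldh1l1, which oxidizes formyl tetrahydrofolate, was at 1018, 1352 and 1405 CPM in cont., at 390, 416 and 408 CPM in Atg7-KO and at 378, 452 and 505 CPM in S351A (log2 fold changes -1.64 and -1.50). Ftcd, which passes the formimino group of histidine to folate, changed by -1.68 and -1.67, and Fpgs, the folylpolyglutamate synthase that retains folate in cells, by -2.01 and -1.40. Of the route that remethylates homocysteine with folate, Mtrr, which reactivates methionine synthase, was not called (0.48 and 0.95, adjusted p 0.313 and 0.0996). Mtr, methionine synthase itself, had 0 to 23 counts and was not tested.

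In mitochondria the folate genes did not move together. Shmt2 was at 333, 319 and 281 CPM in cont., at 151, 183 and 159 CPM in Atg7-KO and at 156, 186 and 207 CPM in S351A, a lower level in all 6 livers with Cre (-0.92 and -0.76, adjusted p 0.00346 and 0.015), and its S351A call was lost without S351A replicate 1 (-0.67, adjusted p 0.0664) and in the 6 compared libraries alone (-0.69, adjusted p 0.0895). Mthfd1l, which releases formate, was barely seen in cont., with 2, 0 and 4 counts, and was at 10.9, 10.4 and 6.41 CPM in Atg7-KO and at 5.74, 8.69 and 7.40 CPM in S351A. It was called higher in both (4.43 and 4.06, adjusted p 0.000114 and 0.00108), and the size of so large a fold rests on those few cont. counts. Mthfd2 was low and not called (1.15 and 0.17, adjusted p 0.0684 and 0.879), but passed in Atg7-KO without Atg7-KO replicate 2 (1.46, adjusted p 0.0436) and under scaling by library totals (1.72, adjusted p 0.0113) or by totals less the top 20 genes (1.60, adjusted p 0.0166). Mthfd2l had 2 to 32 counts and was not tested.

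**Figure D4:**
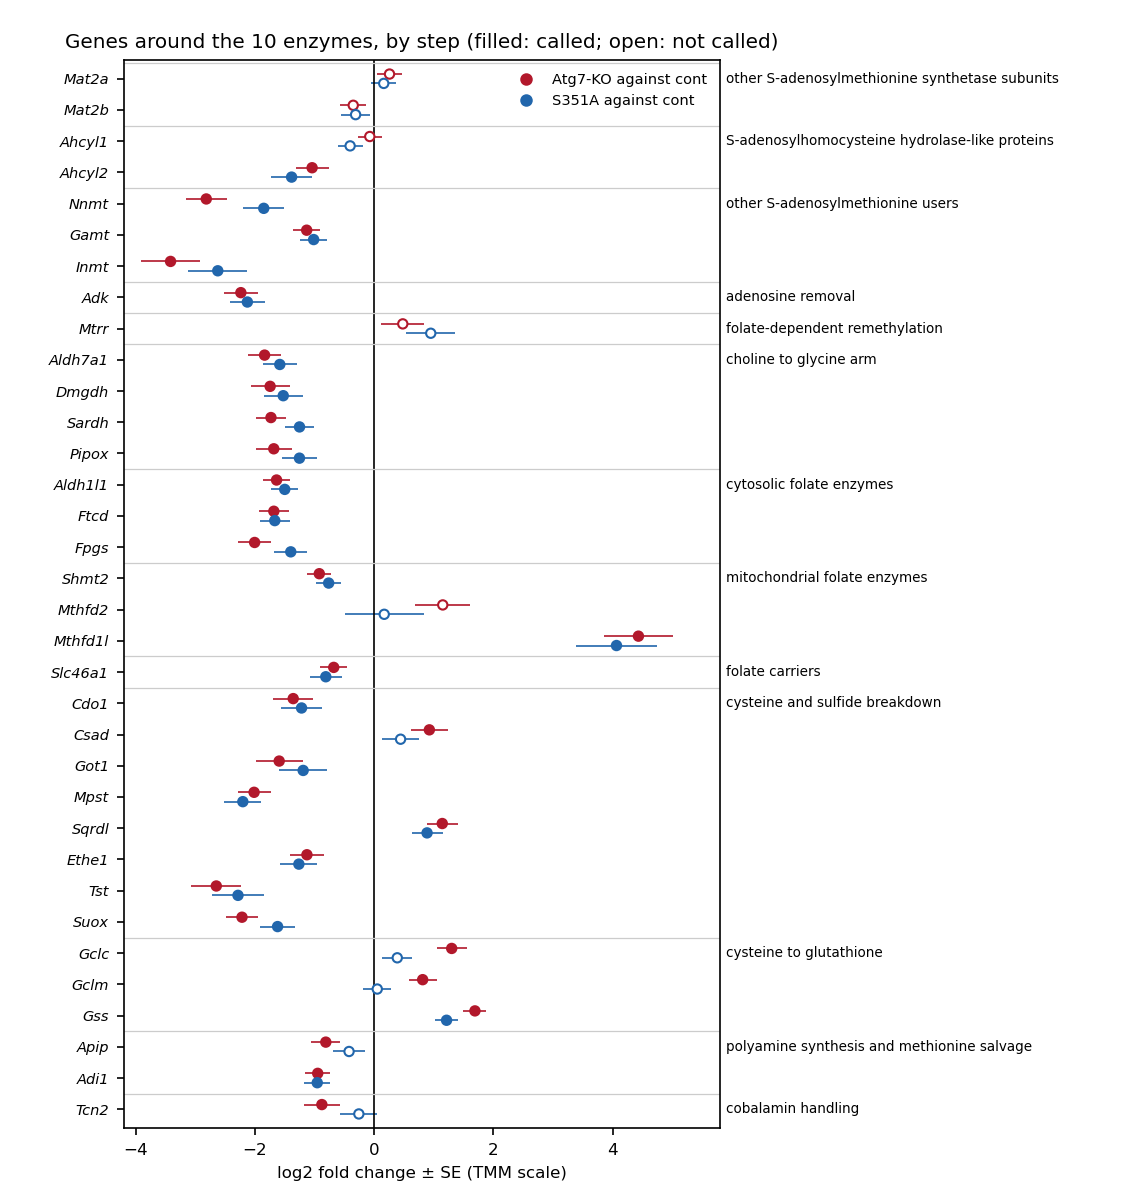
Log2 fold change (x axis, TMM scale, bars SE) in Atg7-KO against cont. (red) and S351A against cont. (blue) of the listed genes that were called in either comparison, with isozymes and Mtrr, which were not; steps are named at the right. Most filled points lie left of 0, and the filled points right of 0 are Mthfd1l, Csad, Sqrdl, Gclc, Gclm and Gss.

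Downstream of Cth, the genes of different fates of cysteine had opposite signs. Of 8 genes that break down cysteine or sulfide, 6 fell in both comparisons, where 18.1% and 13% of all genes were called lower. The 3 genes that build cysteine into glutathione rose in Atg7-KO, where 19.9% of all genes were called higher. Cdo1, which commits cysteine to taurine and sulfate, was at 1513, 3224 and 1909 CPM in cont., at 708, 920 and 966 CPM in Atg7-KO and at 661, 874 and 1323 CPM in S351A, without overlap (log2 fold changes -1.36 and -1.22, adjusted p 0.00737 and 0.0181). Its S351A call was lost without cont. replicate 2 (-0.86, adjusted p 0.0602) or S351A replicate 1 (-1.02, adjusted p 0.0808) or 2 (-1.18, adjusted p 0.0732), and in the 6 compared libraries alone (-1.14, adjusted p 0.0714). Tst and Mpst, sulfurtransferases of the mitochondrion and cytosol, changed by -2.65 and -2.01 in Atg7-KO and by -2.28 and -2.20 in S351A, where Tst was at -2.87 without S351A replicate 3. Suox, the sulfite oxidase, changed by -2.22 and -1.62, and Ethe1, the persulfide dioxygenase, by -1.13 and -1.26. Got1, a transaminase that also takes cysteine sulfinate, changed by -1.59 and -1.19, its S351A call (adjusted p 0.041) being lost without any 1 of cont. replicate 2, the 3 Atg7-KO libraries or S351A replicates 1 and 2 (-1.21 to -0.75, adjusted p up to 0.155), while without S351A replicate 3 it was -1.80. Against this direction, Sqrdl, the sulfide quinone oxidoreductase also named Sqor, rose (1.14 and 0.89, adjusted p 0.00394 and 0.0233), its S351A call being lost without cont. replicate 1 (0.77), cont. replicate 2 (0.80) or S351A replicate 2 (0.55). Csad, which decarboxylates cysteine sulfinate on the way to taurine, was called higher in Atg7-KO only just (0.93, adjusted p 0.0322), and not without cont. replicate 2 or 3, any of the Atg7-KO replicates, or S351A replicate 2 (0.66 to 0.95, adjusted p 0.0508 to 0.0903).

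Gclc and Gclm encode the catalytic and modifier subunits of glutamate-cysteine ligase and Gss the glutathione synthetase, and Gclc and Gclm are textbook targets of NRF2. Gclc was at 448, 301 and 480 CPM in cont., at 844, 1200 and 985 CPM in Atg7-KO, and at 569, 456 and 584 CPM in S351A. The Atg7-KO livers stood above all others, and the S351A livers overlapped cont. Gclc rose in Atg7-KO (log2 fold change 1.30, SE 0.25, adjusted p 0.00168) and was not called in S351A (0.39, adjusted p 0.272) except with total library size (0.88, adjusted p 0.0175) or without the top 20 genes (0.79, adjusted p 0.0303), with S351A against Atg7-KO at -0.91 (95% interval -1.41 to -0.42, unadjusted p 0.00345, adjusted p 0.466 by edgeR and 0.0363 by DESeq2). Gclm was at 146, 140 and 207 CPM in cont., at 242, 344 and 283 CPM in Atg7-KO and at 150, 159 and 204 CPM in S351A. It was called higher in Atg7-KO (0.81, adjusted p 0.0163), a call lost without cont. replicate 2 (0.70, adjusted p 0.0597), Atg7-KO replicate 2 (0.67, adjusted p 0.0897) or Atg7-KO replicate 3 (0.82, adjusted p 0.0525), and not in S351A (0.05, adjusted p 0.898). Gss rose in both (1.69 and 1.21, adjusted p 4.6e-05 and 0.000813), with cont. livers at 73.7 to 83.1 CPM, Atg7-KO livers at 218 to 269 CPM and S351A livers at 171 to 186 CPM. In S351A against Atg7-KO all 3 had negative log2 fold changes with unadjusted p under 0.05 and none was called by edgeR. Per kilobase of exon, the ratio of Cdo1 to Gclc was 7.74, 24.5 and 9.10 in cont., 1.92, 1.76 and 2.25 in Atg7-KO and 2.66, 4.39 and 5.19 in S351A, so the 3 groups did not overlap.

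The remaining calls of the list were those of Adi1, Apip, Tcn2 and Slc46a1. Adi1, of methionine salvage, fell in both (log2 fold changes -0.95 and -0.95, adjusted p 0.00371 and 0.00657). Apip of the same route (-0.81, adjusted p 0.0202) and Tcn2, the cobalamin carrier (-0.88, adjusted p 0.0347), passed in Atg7-KO alone, and the folate carrier Slc46a1 passed in both (-0.68 and -0.81, adjusted p 0.0296 and 0.0385). These 3 calls were not firm, since in Atg7-KO they were lost without cont. replicate 3 for Apip (-0.59), Tcn2 (-0.81) and Slc46a1 (-0.64), without cont. replicate 2 for Tcn2 (-0.61) and Slc46a1 (-0.65), without Atg7-KO replicate 1 for all 3 (-0.67, -0.85 and -0.71), without Atg7-KO replicate 2 for all 3 (-0.82, -0.87 and -0.78) and without Atg7-KO replicate 3 for Tcn2 (-0.91) and Slc46a1 (-0.58). They were also lost with libraries thinned to the smallest total (adjusted p 0.0999 for Apip, 0.0609 for Tcn2 and 0.229 for Slc46a1), for Tcn2 by limma-voom (adjusted p 0.084), in the 6 compared libraries alone (adjusted p 0.0659) and with at least 10 counts in every library (adjusted p 0.0535), and for Slc46a1 by DESeq2 (adjusted p 0.0582). The S351A call of Slc46a1 was lost without any 1 of 6 libraries, namely cont. replicates 2 and 3, Atg7-KO replicates 1 and 2 and S351A replicates 1 and 2 (-0.85 to -0.66, adjusted p 0.0536 to 0.147), and by DESeq2 (-0.80, adjusted p 0.0844), by limma-voom (-0.79, adjusted p 0.0696) and with the replicate block (-0.81, adjusted p 0.0526). edgeR called none of the 4 genes of the glycine cleavage system in either comparison, 2 of the 4 having an unadjusted p under 0.05 in Atg7-KO, where 47.5% of all genes did, and none in S351A, nor Psph, the 1 gene of serine synthesis that was tested (0.91, adjusted p 0.0855 in Atg7-KO).

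Other amino acid pathways of the hepatocyte were lower as well, and no difference between them and the 10 enzymes was tested. All 6 urea cycle genes were called lower in both comparisons, where 18.1% and 13% of all tested genes were, with medians of -1.72 in Atg7-KO and -1.54 in S351A. Of 17 genes that break down aromatic amino acids and histidine, 15 were called lower in Atg7-KO and 14 in S351A, against the same shares of all genes, with medians of -1.62 and -1.27. Of the 9 hepatocyte markers, 7 were called lower in both, with medians of -1.17 and -1.15, and Apob (0.22 and 0.30) and Hnf4a (0.38 and 0.29) were not called.

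Some lists of markers of other cells moved with the same groups and others did not. For scale, higher calls against cont. made up 19.9% of all tested genes for Atg7-KO and 15.6% for S351A. Lower calls made up 18.1% and 13%, respectively. The 8 ductular markers summed to 48.2 to 85.2 CPM (cont.), 828 to 1225 CPM (Atg7-KO) and 734 to 1217 CPM (S351A), and all 7 tested members were called higher in both. The 8 stellate cell and matrix markers summed to 257 to 515, 1228 to 1684 and 1140 to 1599 CPM in the same order, with Timp1 at 0 in all cont. libraries and 5 of 7 tested members called higher in both. The sums of 8 macrophage markers in Atg7-KO and in S351A each overlapped those of cont. (214 to 330.3, 293 to 382 and 262 to 290.01 CPM, 4 of 8 called higher in both). All Atg7-KO sums of these markers were above all S351A sums. The sums of 6 endothelial markers overlapped between all groups (102 to 193, 133 to 159 and 112 to 152 CPM). The 6 lymphocyte markers summed to 5.46 to 9.86, 17.9 to 21.6 and 11.1 to 23.0 CPM. The 5 erythroid markers summed to 322 to 898, 93.0 to 204 and 151 to 217 CPM, with 2 of 3 tested members called lower in both and Hba-a1 at 0 in all libraries. The 6 proliferation genes summed to 13.8 to 22.2, 109 to 146 and 93.8 to 109 CPM, with 6 of 6 called higher in Atg7-KO and 5 in S351A. Of 7 pericentral hepatocyte markers, 6 were called lower in Atg7-KO and 4 in S351A, and 1 was called higher in each, with sums of 3767 to 9788 CPM (cont.), 587 to 678 CPM (Atg7-KO) and 948 to 1951 CPM (S351A). Of 6 periportal markers, 6 and 4 were called lower, with sums of 4014 to 6898 CPM (cont.), 1564 to 2204 CPM (Atg7-KO) and 1221 to 3459 CPM (S351A). The part of these cells in the lower levels of the 10 enzymes was not tested. Antisense or opposite-strand genes overlap Ahcy, Bhmt, Gnmt, Mthfd1 and Shmt1, and Gm43314 overlaps Cth on the same strand. Because no source used here states whether counting used strand, reads of these partners may be included.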

How the data were processed

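RNA of 9 livers, 3 per group, was measured by poly(A) RNA-seq. Per the labels' processing notes, the authors used Trim Galore, STAR and RSEM with mm10, and versions, annotation and strand setting are not given in the sources used here. The deposited table holds expected counts, estimated reads per gene without scaling between libraries, and these were rounded. The columns WT, LKO and LKOSA were matched to cont., Atg7-KO and S351A by the meaning of these names and by replicate number, a match that no file states. Symbols were matched to GENCODE M21 for positions and to RefSeq (GRCm38.p6) for promoters.

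The test was that of edgeR 4.0.16, run in R 4.3.3. Of 24411 genes, filterByExpr (minimum count 10, minimum total 15) kept 11199. All 9 libraries entered a single quasi-likelihood fit with TMM factors and 1 coefficient for each group, each pair of groups was compared by its F test, and p-values were adjusted by Benjamini-Hochberg over the 11199 genes. The SE is the log2 fold change over the root of F, and 95% intervals are normal. Fits were tested on simulated data. Library totals limit precision as given above, and a floor of 3 counts lay at 0.269 to 3.73 CPM, which covers counting error only.

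The alternatives were scaling by RLE, by library totals or by totals less the top 20 genes, other filters, DESeq2 1.42.0, limma-voom (limma 3.58.1), the 6 compared libraries alone, replicate number or sex as a covariate, thinning to the smallest library, other thresholds and leaving out each library. The 10 genes, the lists and the tests were chosen with earlier results of these data known. Named beside the 10 were listed genes called against cont., the isozymes, Mtr, Mtrr and Dmgdh, and some genes of the lists are not reported here.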

Additional observations from a re-analysis of the deposited data

How the results depend on the processing

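In Atg7-KO and S351A against cont., all 10 genes stayed negative under every alternative, and S351A against Atg7-KO gave no call among them in any. Total library size lowered the calls to 6 and 5 of the 10, and to 14 and 12 lower calls among the listed genes, with 18 and 10 higher, where 7.11% and 4.55% of all genes were called lower and 38.5% and 31.6% higher. Without the top 20 genes the higher calls among the listed genes were 16 and 8, where 33.9% and 27.4% of all genes were called higher. In S351A against Atg7-KO, 1 listed gene was called without a filter (Amd1) and 1 by DESeq2 (Gclc), which called 18 genes lower and 21 higher of all tested where edgeR called 1. Leaving out single libraries gave 8 to 10 calls of the 10 in Atg7-KO, 6 to 9 in S351A and 0 to 0 between them, and 20 to 25, 17 to 21 and 0 to 0 listed genes, with 4 to 7 and 2 to 3 higher. The causes were not tested. Of the 68 listed genes, 61 had enough counts for a test.

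Signs turned only for values that were not called. With single libraries left out, S351A against Atg7-KO ran from -0.10 to 0.46 for Bhmt, -0.48 to 0.22 for Bhmt2, -0.069 to 0.21 for Pemt and -0.15 to 0.15 for Mthfd1, with the lowest value of each found without S351A replicate 3. S351A against cont. ran from -0.10 to 0.26 for Mat2a, -0.50 to 0.49 for Mthfd2, -0.11 to 0.25 for Gclm and -0.58 to 0.010 for Tcn2. Bhmt2 was also 0.0018 in the 6 compared libraries, and Mthfd1 -0.023 with total library size, -0.013 without the top 20 genes, -0.034 unfiltered and -0.13 thinned. In Atg7-KO against cont., Mat2b (0.21 and 0.097) and Ahcyl1 (0.47 and 0.36) turned positive with total library size and without the top 20 genes, and Ahcyl1 with 10 counts in every library (0.012) or thinned (0.047). In S351A against cont., total library size turned Mat2b (0.20), Ahcyl1 (0.096), Apip (0.084) and Tcn2 (0.25), leaving out the top 20 genes turned Mat2b (0.096) and Tcn2 (0.15), and dropping the filter turned Gclm (-0.056).

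Replicate numbers are shared between groups, but same-numbered libraries did not deviate together throughout (r from -0.04 to 0.31 across genes, over 0.1 in 5 of 9 pairs, and 6 of 9 libraries were closest to their own number). With the replicate block, 10, 9 and 0 of the 10 genes were called in the 3 comparisons, Gnmt being added in S351A against cont. (-0.84, adjusted p 0.0435), where the call of Slc46a1 was lost (-0.81, adjusted p 0.0526).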

Other observations

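Amd1, which decarboxylates S-adenosylmethionine for polyamine synthesis, and its near-identical copy Amd2 shared their counts unevenly. Atg7-KO replicate 2 had 447 counts on Amd1 and 0 on Amd2, whereas the other 8 libraries had 0 on Amd1 and 95 to 736 on Amd2.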
